A study of Mus musculus with 8 samples.

Results

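The T cell receptor complex and its identity genes were followed through 8 mouse RNA sequencing libraries: the CD3 subunit genes Cd3d, Cd3e, Cd3g and Cd247, the co-receptor gene Cd4, the kinase genes Lck and Txk, and the surface molecule genes Cd5, Cd6 and Thy1. These members were named by symbol, and all 10 were present among the 14042 genes of every deposited table. The libraries form 4 groups of 2. TFH KO and TFH WT libraries are donor CD4 cells, positive for CXCR5 and high for PD1, sorted from the spleens of (bxd)F1 mice at day 7 after transfer of CD8-depleted spleen cells from C5aR1-/- or WT donors. Naive KO and naive WT libraries are CD4 cells sorted as naive, low for CD44, from C5aR1-/- or WT mice, with no transfer named. TFH stands for T follicular helper, the CD4 cell that helps B cells in germinal centres, and C5aR1 is a receptor for the complement fragment C5a. Strain, age and any pooling of animals are not given. Transferred and naive cells differ in host and history as well as in the sort.

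The T cell receptor recognises peptide on MHC through its alpha and beta chains, which have almost no cytoplasmic tail. Signals leave through the CD3 delta, epsilon, gamma and zeta chains, whose tyrosine motifs are phosphorylated by Lck, a Src-family kinase carried to the receptor by CD4. ZAP-70 binds those motifs and passes the signal on to adaptors and to TEC-family kinases, while CD5 and CD6 are scavenger receptor family molecules that tune the signal. The genes of the receptor chains' constant regions (Trac, Trbc1, Trbc2 and others) were not analysed here.

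Several members are chromosomal neighbours (RefSeq, GRCm38.p6). Cd3g (chr9:44969572-44980431) and Cd3d (chr9:44981769-44987052) are transcribed away from each other with 1337 bases between them, and Cd3e (chr9:44998735-45009663) lies 11682 bases beyond Cd3d. Thy1 is on the same chromosome at chr9:44043384-44048579. Cd5 (chr19:10718107-10739026) and Cd6 (chr19:10789339-10830062) are 50312 bases apart. The others are dispersed: Cd247 at chr1:165779952-165871153, Lck at chr4:129548344-129573641, Txk at chr5:72695978-72752992 and Cd4 at chr6:124864693-124888247.

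RefSeq promoter sequences were held for 7 of the 10 members, and for Cd4, Cd6 and Thy1 none was. The upstream bases of 5 are shown, 5′ to 3′ on the gene's strand and cut off at the outermost annotated start. These are the 3 clustered CD3 genes, Lck and Cd5. Cd247 and Txk also had an entry, but too few of its bases lay upstream of that start. An entry's last bases, past the printed stretch, lay in an annotated GENCODE transcript of the same gene except for Cd3e, whose start this check did not find. Capitals mark GGAA, the core letters of ETS factor motifs, on either strand.
Cd3g (chr9:44980432-44980681, minus strand): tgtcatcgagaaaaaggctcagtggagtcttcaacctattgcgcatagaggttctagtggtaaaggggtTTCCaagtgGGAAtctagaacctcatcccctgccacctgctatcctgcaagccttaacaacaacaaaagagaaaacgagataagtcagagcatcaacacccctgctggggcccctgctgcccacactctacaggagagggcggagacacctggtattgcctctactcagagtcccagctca
Cd3d (chr9:44981536-44981768, plus strand): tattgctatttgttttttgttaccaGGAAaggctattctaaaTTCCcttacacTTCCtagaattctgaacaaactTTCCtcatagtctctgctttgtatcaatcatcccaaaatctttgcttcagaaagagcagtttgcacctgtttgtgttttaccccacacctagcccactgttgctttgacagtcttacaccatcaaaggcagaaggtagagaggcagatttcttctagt
Cd3e (chr9:45009664-45009861, minus strand): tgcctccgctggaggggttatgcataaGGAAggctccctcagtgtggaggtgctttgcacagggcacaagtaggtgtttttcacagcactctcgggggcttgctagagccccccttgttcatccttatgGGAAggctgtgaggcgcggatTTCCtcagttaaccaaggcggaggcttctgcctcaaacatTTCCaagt
Lck (chr4:129573642-129573891, minus strand): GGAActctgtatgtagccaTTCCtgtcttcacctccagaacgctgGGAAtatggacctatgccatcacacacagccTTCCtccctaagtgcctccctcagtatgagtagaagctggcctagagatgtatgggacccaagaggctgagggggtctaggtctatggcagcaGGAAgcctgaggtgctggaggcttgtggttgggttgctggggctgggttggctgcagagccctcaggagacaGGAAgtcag
Cd5 (chr19:10739027-10739224, minus strand): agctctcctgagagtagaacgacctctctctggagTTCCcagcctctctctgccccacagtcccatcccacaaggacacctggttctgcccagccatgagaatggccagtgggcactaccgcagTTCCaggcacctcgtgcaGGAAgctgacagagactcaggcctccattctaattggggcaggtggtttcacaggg
There were 2 matches to GGAA in the Cd3g stretch, 4 in Cd3d, 4 in Cd3e, 6 in Lck and 3 in Cd5. The letters are common: 93.4% of all 32851 promoter entries hold them in the same 250 bases, 92.1% in the 233 bases used for Cd3d and 89.0% in the 198 bases used for Cd3e and Cd5. The E-box letters CANNTG occurred 3 times in Cd3g, 1 time in Cd3d and 2 times in Cd5, and not in the Cd3e and Lck stretches; 66.2%, 63.9% and 58.7% of all entries hold them at those lengths. Of 6 other motifs searched on both strands, with overlaps allowed, CTTTGA (TCF/LEF) had 2 matches in Cd3d, a match that 13.2% of entries have. TGTGGT (RUNX) had 1 match in Lck (14.0% of entries), and CACCC (KLF) had 1 in Cd3g (52.0%). AGATAA, for the factor family of Gata3, had 1 in Cd3g (9.99%). The AP-1 letters TGANTCA and the core promoter letters TATAAA had none in these stretches.

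Levels are deposited log2 values, whose read depth is unknown, and differences are log2 differences of group means ± SE. They are reported as called where limma's adjusted p over all genes is below 0.05, with n = 2 libraries per group. Because gene length was not known to be accounted for, levels are compared between libraries and not between genes. Whether a group's 2 libraries are different mice is not stated, and a p-value may therefore reflect technical spread only. C5ar1 itself was not analysed here, which leaves the genotype labels without a check on the deleted gene. Transcripts of the sort markers did not all follow the gates, and TFH and naive here name the libraries as labelled. Cd44 was 11.97 to 12.11 in TFH and 12.53 to 13.04 in naive libraries. Cxcr5 was 10.85 to 11.56 in TFH and 11.56 to 12.45 in naive libraries. Over both genotypes these were called lower in TFH, at -0.69 and -0.80 (adjusted p = 0.000370 and 0.0496). Pdcd1, which encodes PD1, was 11.88 to 12.85 in TFH and 10.80 to 11.97 in naive libraries, which overlapped, and was not called (0.97 ± 0.36, adjusted p = 0.108). Naive KO replicate 1 alone had a high level of Xist, at 14.61, and a low one of the Y-linked Ddx3y, at 5.67.

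All 10 members lay far above the tables' lower values in every library, from 11.77 for Txk to 16.02 for Lck, and Cd3e and Cd4, the markers that define CD4 T cells, were never below 13.75 and 15.48. Genes of other cells were also measured. The B cell markers Cd79a and Ms4a1 ranged from 6.70 to 12.66 in TFH and from 8.68 to 11.37 in naive libraries. Over 20 B cell genes the median was 11.36 and 10.00 in replicate 2 of TFH KO and TFH WT, against 7.88 and 7.91 in replicate 1 of each and 9.07 to 10.26 in naive libraries. On the log2 scale their summed level was 13.12 to 17.03 in TFH and 14.56 to 15.69 in naive libraries. The 26 myeloid genes summed to 14.06 to 14.82 in TFH and to 15.30 to 16.69 in naive libraries, and 13 CD8 T and NK cell genes to 12.26 to 13.06 in TFH and to 13.52 to 13.85 in naive libraries. Over both genotypes none of the 20 B cell genes was called. Of the 26 myeloid genes 9 were lower and 1 higher in TFH than in naive libraries, and 7 of the 13 CD8 T and NK cell genes were lower. Of the markers of other cells, 2 of 5 gamma delta T cell genes and 1 of 5 erythroid and platelet genes were lower, and 1 of 6 plasma cell genes was higher. In that comparison 38.1% of all genes were called, 19.8% lower and 18.3% higher. Whether any list's count exceeds those shares was not tested. No marker in these lists was at 0. Their part in the results below was not tested, except where a fit with the B cell median or without the libraries is named. In such bulk samples fewer cells of a type and less RNA per cell cannot be told apart.

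**Figure D1:**
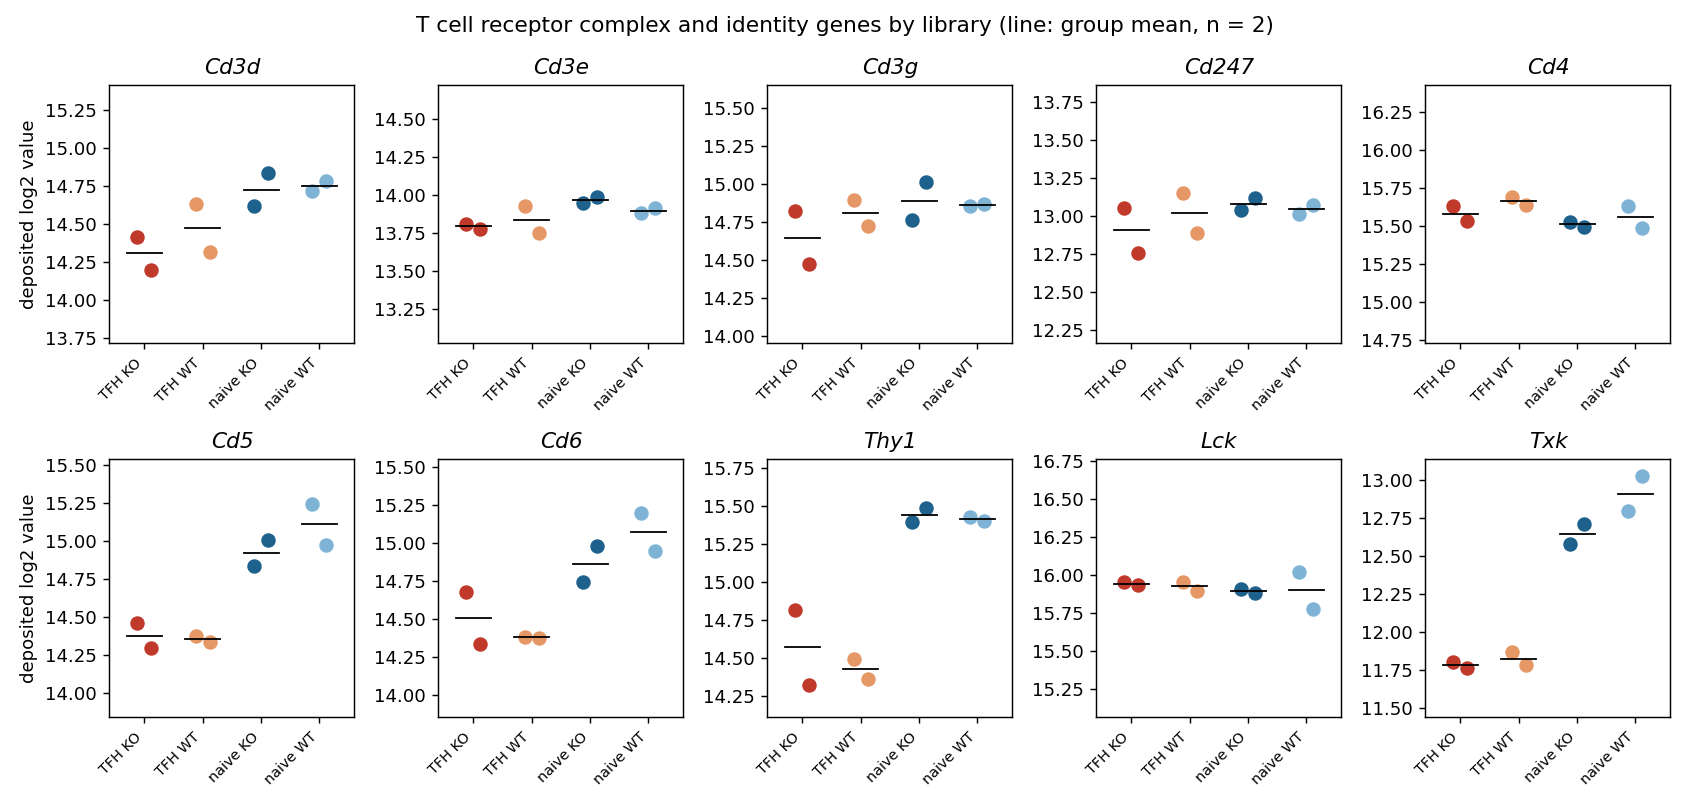
Deposited log2 value of each member in each of the 8 libraries, by group, with a line at the mean of the 2 libraries; every panel spans the same number of log2 units. Cd5, Cd6, Thy1 and Txk have all 4 TFH libraries below all 4 naive libraries, while Cd4 and Lck vary by 0.20 and 0.25 over the 8 libraries.

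TFH libraries were set against naive libraries to ask how far the receptor genes differed between the libraries under these labels. The result divided the members. Thy1 and Txk stood at 52.6% and 51.0% of their naive level, averaged over both genotypes. Cd5 stood at 63.7% and Cd6 at 69.6%. The CD3 genes apart from Cd3d, and Cd4 and Lck, were not called, with averages between 90.4% and 106% of the naive level. In the average over genotypes 5 of the 10 members fell and 5 were not called. Their median difference was -0.25. Of all genes 38.1% were called in that comparison, 19.8% lower and 18.3% higher, and the median was 0.00. For 4 members all TFH libraries lay below all naive ones, as they did for 20.3% of all genes.

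Within each genotype 4 of 10 members were called, all lower. In KO these were Cd3d, Cd5, Thy1 and Txk, where 19.5% of all genes were called, 10.4% lower and 9.12% higher. In WT they were Cd5, Cd6, Thy1 and Txk, where 26.3% of all genes were called, 13.7% lower and 12.6% higher. Without naive KO replicate 1, the library with high Xist, the same members were called in KO, at -0.53 for Cd3d, -0.63 for Cd5, -0.91 for Thy1 and -0.93 for Txk (adjusted p = 0.0446, 0.0158, 0.0113 and 0.00107). The average over genotypes uses the same libraries as these comparisons and is no separate evidence. No member's difference depended on genotype by the interaction test (adjusted p = 0.997 for each, limma), and 0.0142% of all genes were called in that test.

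**Figure D2:**
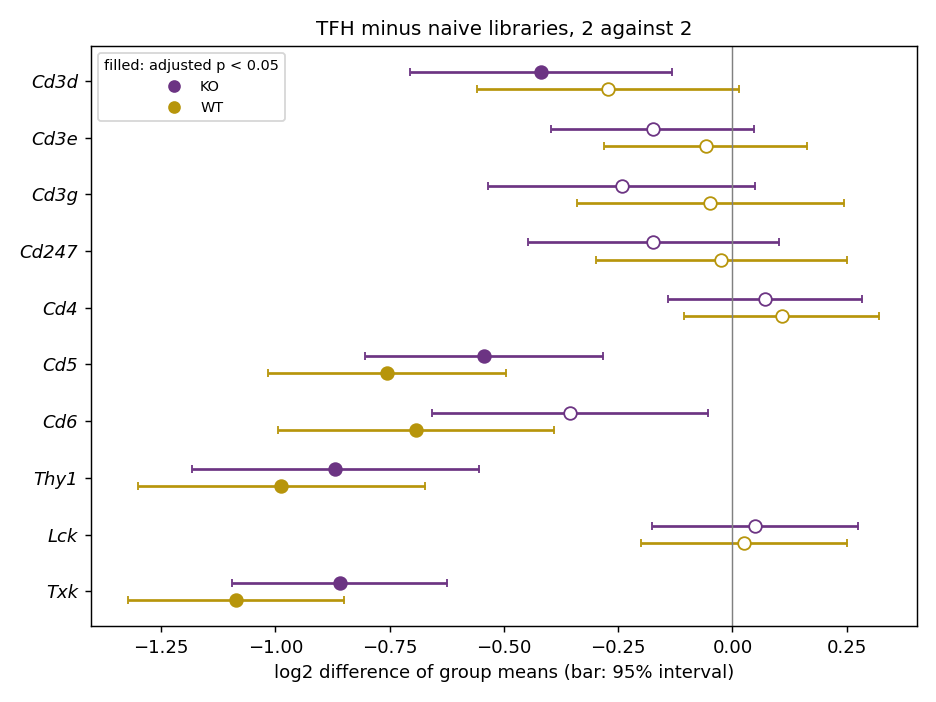
Log2 difference of TFH minus naive group means for each member, in KO and in WT, with 95% intervals; filled points have an adjusted p below 0.05 by limma over all genes. Cd5, Thy1 and Txk are filled in both genotypes, and the intervals of Cd3e, Cd3g, Cd247, Cd4 and Lck include 0 in both.

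Cd3d encodes the delta chain, which pairs with epsilon. Its log2 values were 14.42 and 14.20 in TFH KO and 14.63 and 14.32 in TFH WT, against 14.62 and 14.84 in naive KO and 14.72 and 14.78 in naive WT. The TFH libraries were the lower ones within each genotype, but TFH WT replicate 1 overlapped naive KO replicate 1. The difference was -0.42 ± 0.13 in KO (adjusted p = 0.0440) and -0.27 ± 0.13 in WT (adjusted p = 0.152), and -0.35 ± 0.09 over both (adjusted p = 0.0118). The call in KO ended in 8 of 13 alternative fits, among them those without TFH KO replicate 2 (-0.31, adjusted p = 0.261), without naive KO replicate 2 (-0.31, adjusted p = 0.236) and without either TFH replicate 2 (-0.31, adjusted p = 0.241). The call over both genotypes ended without TFH WT replicate 2 (-0.27) and without either TFH replicate 2 (-0.21), the libraries with the high B cell genes. It held without TFH KO replicate 2 alone, the library with the highest B cell median, at 11.36. It also ended relative to the mean of the CD3 genes, of which Cd3d is itself 1 of 4 (-0.17, adjusted p = 0.119), as it did in KO (-0.17, adjusted p = 0.303). A fit that included the B cell median called Cd3d in WT as well (-0.32, adjusted p = 0.0299).

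Cd3e encodes the epsilon chain, which is present in both CD3 dimers. It was measured at 13.81 and 13.78 in TFH KO and 13.93 and 13.75 in TFH WT, against 13.95 and 13.99 in naive KO and 13.88 and 13.92 in naive WT. Only 4.86% of all genes had a smaller range over the 8 libraries than its 0.24. It differed by -0.17 ± 0.10 in KO and -0.06 ± 0.10 in WT and was not called (adjusted p = 0.265 and 0.718).

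Cd3g, for the gamma chain, read 14.82 and 14.47 in TFH KO and 14.90 and 14.72 in TFH WT, against 14.76 and 15.01 in naive KO and 14.85 and 14.86 in naive WT. Its TFH and naive libraries overlapped in each genotype, and the difference over both was -0.15 ± 0.09 (adjusted p = 0.254). It was called in the fit with the B cell median (-0.18, adjusted p = 0.0452), and was -0.06 without TFH KO replicate 2 and -0.01 without either TFH replicate 2. Cd247, for the zeta chain that carries most of the complex's tyrosine motifs, had 13.05 and 12.76 in TFH KO and 13.15 and 12.88 in TFH WT, against 13.04 and 13.12 in naive KO and 13.01 and 13.07 in naive WT. It overlapped as well, at -0.10 ± 0.09 over both genotypes (adjusted p = 0.418). The 95% intervals of these average differences were -0.35 to 0.06 for Cd3g and -0.29 to 0.10 for Cd247, so falls of the size of Thy1 or Txk lie outside them.

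In all 4 CD3 genes the lowest TFH library of each genotype was replicate 2. The mean of the 4 genes was 13.80 and 13.92 in replicate 2 of TFH KO and TFH WT, against 14.03 and 14.15 in replicate 1 of each and 14.09 to 14.24 in naive libraries. These are also the TFH libraries with the higher B cell genes given above, and their myeloid median was 9.52 and 9.06, against 7.92 and 7.11 in replicate 1 of each. Naive libraries had myeloid medians of 9.34 to 10.79. Naive KO replicate 1 had a B cell median of 10.26, above the 10.00 of TFH WT replicate 2, and a CD3 mean of 14.09 against 13.92. The summed B cell level was alike in these libraries, at 15.55 and 15.53. The link between B cell genes and the CD3 mean was not tested.

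Cd4, whose product binds MHC class II and brings Lck to the receptor, was at 15.63 and 15.53 in TFH KO and 15.69 and 15.64 in TFH WT, against 15.53 and 15.49 in naive KO and 15.63 and 15.48 in naive WT. Within each genotype the TFH libraries were above the naive ones, by 0.07 ± 0.10 in KO and 0.11 ± 0.10 in WT, which was not called (adjusted p = 0.668 and 0.456). A range over the 8 libraries below its 0.20 was found for 2.49% of all genes. Lck was at 15.95 and 15.93 in TFH KO and 15.95 and 15.89 in TFH WT, against 15.90 and 15.88 in naive KO and 16.02 and 15.77 in naive WT. The highest and the lowest Lck values were both in naive WT, and the difference over both genotypes was 0.04 ± 0.07 with a 95% interval of -0.12 to 0.20 (adjusted p = 0.729).

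Cd5 encodes a receptor that restrains T cell receptor signals and whose surface level is known to follow their strength in thymocytes. Its values were 14.46 and 14.29 in TFH KO and 14.38 and 14.34 in TFH WT, against 14.84 and 15.0 in naive KO and 15.25 and 14.98 in naive WT. All TFH libraries were below all naive ones. Cd5 fell by 0.54 ± 0.12 in KO (adjusted p = 0.00804) and by 0.76 ± 0.12 in WT (adjusted p = 0.000875). In KO the call ended without TFH KO replicate 2 (-0.46, adjusted p = 0.0732), without naive KO replicate 2 (-0.46, adjusted p = 0.0588) and without either TFH replicate 2 (-0.46, adjusted p = 0.105). In WT it held in all 13 alternative fits.

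Cd6, the neighbour of Cd5 and a receptor for CD166, showed 14.68 and 14.33 in TFH KO and 14.38 and 14.38 in TFH WT, against 14.75 and 14.98 in naive KO and 15.20 and 14.95 in naive WT. All TFH libraries were below all naive ones, with TFH KO replicate 1 close under naive KO replicate 1. Cd6 fell by 0.69 ± 0.14 in WT (adjusted p = 0.00380), and in KO the difference of -0.36 ± 0.14 was not called (adjusted p = 0.0948). It was called in KO without TFH KO replicate 1 (-0.53, adjusted p = 0.0369), and in a fit that included the B cell median (-0.37, adjusted p = 0.0470). Without TFH KO replicate 2 it was -0.18 (adjusted p = 0.518), without naive KO replicate 2 -0.24 (adjusted p = 0.400) and relative to the CD3 genes -0.10. The interaction of 0.34 ± 0.19 had a 95% interval of -0.09 to 0.76. Of 9 other measured genes within 100 kb of Cd5 and Cd6, a window chosen after values were seen, 1 rose, 1 fell and 7 were not called over both genotypes. In that comparison 18.3% of all genes rose and 19.8% fell. Tmem109 fell by 0.51 ± 0.08 (adjusted p = 0.000517), Prpf19, a splicing factor gene, rose by 0.19 ± 0.07 (adjusted p = 0.0475), and Vps37c beside Cd5 was at -0.02 ± 0.09.

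Thy1, the GPI-anchored surface glycoprotein used as a marker of mouse T cells, had log2 values of 14.81 and 14.32 in TFH KO and 14.49 and 14.36 in TFH WT, against 15.39 and 15.48 in naive KO and 15.42 and 15.40 in naive WT. The 4 naive libraries lay close together, and all TFH libraries were below them. Thy1 fell by 0.87 ± 0.14 in KO (adjusted p = 0.00179) and by 0.99 ± 0.14 in WT (adjusted p = 0.000614), to 54.8% and 50.5% of the naive level. TFH KO replicate 1 was the highest TFH library for Thy1, and without it the difference in KO was -1.12. Without TFH KO replicate 2 it was -0.62 (adjusted p = 0.0104), and both values were called.

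Txk encodes a TEC-family kinase of T cells. It had 11.80 and 11.77 in TFH KO and 11.87 and 11.78 in TFH WT, against 12.58 and 12.71 in naive KO and 12.80 and 13.03 in naive WT. The gap to the naive libraries was wider than the spread within either. Txk fell by 0.86 ± 0.11 in KO (adjusted p = 0.000259) and by 1.09 ± 0.11 in WT (adjusted p = 4.10e-05), to 55.1% and 47.1% of the naive level. The falls of Thy1 and Txk were called in each of 13 alternative fits in KO and in WT, including those without any 1 library and without replicate 2 of both TFH groups.

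Each library's mean over the CD3 genes gives a scale set by T cell transcripts of the same tube. On that scale the median difference of all genes between TFH and naive libraries was 0.24 in KO and 0.11 in WT, against -0.01 and 0.01 as deposited. The share of called genes that were higher was 82.6% and 61.9%, against 46.6% and 48.0% on the deposited scale. The scaling moves every gene of a library by the same amount. The shift of the median therefore restates the lower CD3 mean of TFH libraries, and the share moves with it. Whether CD3 RNA per T cell was equal under both labels was not tested. Txk, at -0.61 in KO and -0.98 in WT, and Thy1, at -0.62 and -0.89, stayed called (adjusted p = 0.0173, 0.00177, 0.0142 and 0.00252). Cd5 and Cd6 stayed called in WT, at -0.65 and -0.59 (adjusted p = 0.0137 and 0.0230), and over both genotypes, at -0.47 and -0.35 (adjusted p = 0.00633 and 0.0266). In KO Cd5 at -0.29 and Cd6 at -0.10 were not (adjusted p = 0.166 and 0.625). Cd4 was 0.27 and Lck 0.21 higher per CD3 over both genotypes, and neither was called (adjusted p = 0.0511 and 0.129).

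**Figure D3:**
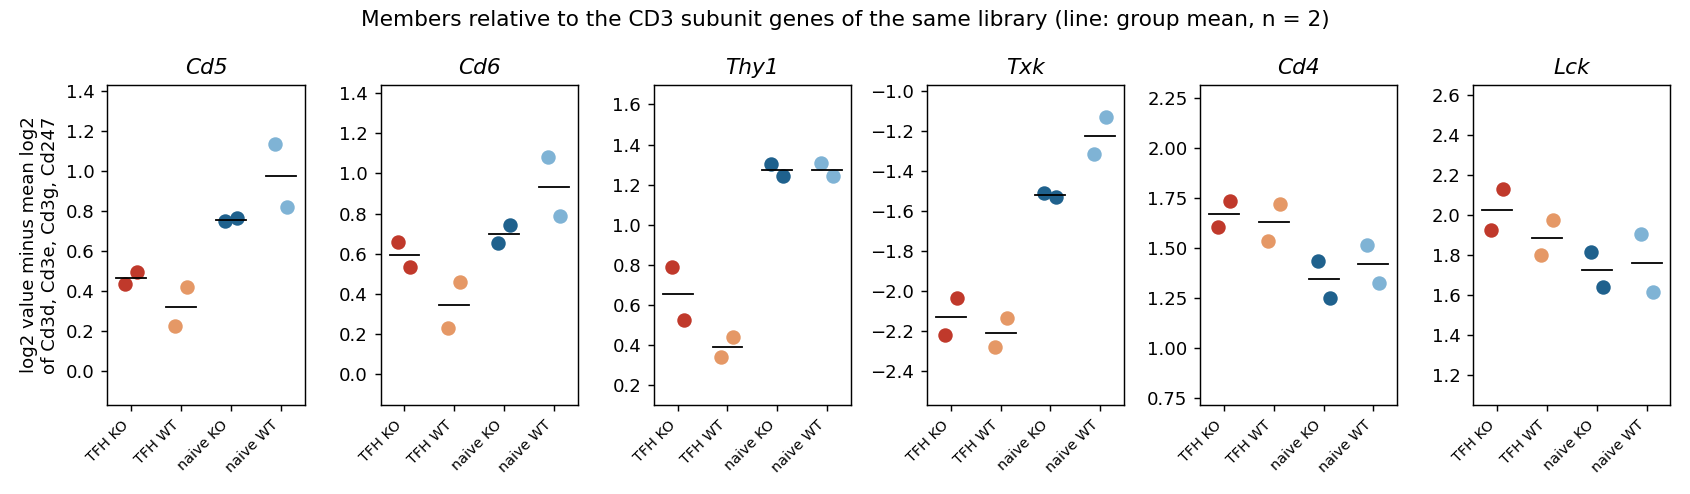
Log2 value of 6 members minus the mean log2 value of the 4 CD3 subunit genes in the same library, by group, with a line at the mean of the 2 libraries. Thy1, Txk and Cd5 have all TFH libraries below all naive ones, and for Cd6 TFH KO replicate 1 (0.66) reaches naive KO replicate 1 (0.65).

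Across the 8 libraries, which were normalized together and include both cell labels, some members varied together. Pearson's r was 0.97 between Cd5 and Cd6, 0.94 between Cd5 and Thy1 and 0.94 between Cd5 and Txk. Among the CD3 genes it was 0.73 to 0.92, with the highest value for Cd3g and Cd247. Cd4 and Lck had an r of 0.68 with each other and between -0.60 and 0.07 with every other member. Of 6853 candidate genes, those with the smallest distance to a member's centred profile were Selplg, the gene of the selectin ligand PSGL-1, for Thy1 (r = 0.995, distance 0.16) and Gpr171, a receptor gene, for Txk (r = 0.99, distance 0.19). Mcfd2 was nearest to both Cd5 (r = 0.99, distance 0.13) and Cd6 (r = 0.98, distance 0.18), and Cux1 to both Cd4 (r = 0.86) and Lck (r = 0.88). For the CD3 genes they were Prdx3 for Cd3d (r = 0.98), Maea for Cd3e (r = 0.96), BC028528 for Cd3g (r = 0.95) and Gabarapl2 for Cd247 (r = 0.97). These likenesses rest on 8 libraries and are descriptions.

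KO and WT libraries were compared to ask whether loss of C5aR1 changed the receptor genes. None of the 10 members was called in TFH or in naive libraries or in the average of both, where 0%, 0.0712% and 0.0570% of all genes were called. At an unadjusted p below 0.05 (limma), 506 of 14042 genes passed in TFH, 355 in naive libraries and 293 in the average. Each count is below the share of 0.05 that would pass if no gene differed. In TFH libraries the largest member differences were -0.17 ± 0.13 for Cd3d, -0.16 ± 0.13 for Cd3g and 0.14 ± 0.14 for Thy1. The 95% intervals of all members in TFH lay between -0.46 and 0.46. Cd4 was the only member whose TFH KO libraries both lay below both TFH WT libraries, by 0.08 ± 0.10, where 16.5% of all genes were placed that way. Relative to the CD3 genes the median of all genes was 0.12 in this comparison, a shift set by their lower mean in TFH KO. On that scale Cd4 was at 0.04 and Thy1 at 0.27.

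In naive libraries Txk had the largest difference between genotypes. Its 2 KO libraries were both below its 2 WT libraries, as were those of 11.2% of all genes, and the difference was -0.27 ± 0.11 with a 95% interval of -0.50 to -0.03. The unadjusted p was 0.0291 and the adjusted p 1.0 (limma). Without naive KO replicate 1 the difference was -0.20, and without naive WT replicate 2 it was -0.16. Leaving out naive KO replicate 2 or naive WT replicate 1 instead made the difference larger. Cd5 at -0.19 ± 0.12 and Cd6 at -0.21 ± 0.14 had overlapping libraries. Cd3e was higher in both naive KO libraries than in both naive WT ones, by 0.07 ± 0.10, as 15.2% of all genes were. The 95% intervals of all members in naive libraries lay between -0.51 and 0.34.

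**Figure D4:**
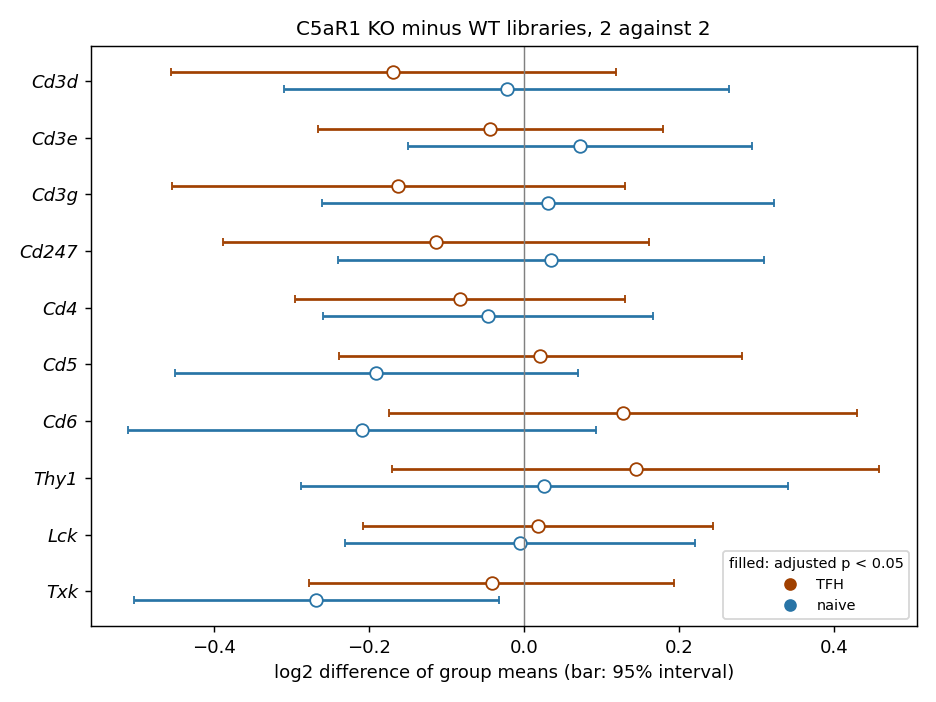
Log2 difference of KO minus WT group means for each member, in TFH and in naive libraries, with 95% intervals; no point has an adjusted p below 0.05 by limma over all genes. The interval of Txk in naive libraries is the only one that leaves out 0.

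The rest of the pathway was taken as lists, and counts are for TFH against naive over both genotypes. Of 22 genes that carry the signal inwards from the receptor, 5 rose, 4 fell and 13 were not called, with a median of -0.02, where 18.3% of all genes rose and 19.8% fell. Together 9 of 22 is near the 38.1% of all genes called, and the values below describe single genes. Bcl10 and Malt1, partners in the complex that links the receptor to NF-kB, rose by 0.60 ± 0.08 and 0.39 ± 0.08 (adjusted p = 0.000147 and 0.00325). The adaptor gene Sh2d2a rose by 0.44 ± 0.07, the Src-family kinase gene Fyn by 0.31 ± 0.07 and Zap70 by 0.31 ± 0.09 (adjusted p = 0.000534, 0.00622 and 0.0174). The call of Zap70 held in 10 of 16 alternative fits, with values from 0.22 to 0.49. The adaptor gene Nck1 fell by 0.60 ± 0.08 and Themis by 0.57 ± 0.10 (adjusted p = 0.000111 and 0.000775). Grap2 at -0.34 ± 0.08 and Was at -0.29 ± 0.07 were called too, but not relative to the CD3 genes (-0.16 and -0.11, adjusted p = 0.324 and 0.349). Lat, Lcp2, Plcg1 and Vav1, the scaffold, adaptor, phospholipase and exchange factor genes downstream of ZAP-70, were between -0.06 and 0.04 and not called.

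Of 4 TEC-family kinase genes followed, which include the member Txk, 2 fell and 2 were not called, where 19.8% of all genes fell and 18.3% rose. Besides Txk, Tec fell by 0.62 ± 0.11 (adjusted p = 0.000861), a call that ended relative to the CD3 genes (-0.44, adjusted p = 0.0536). Btk, which B cells use, was at -0.51 and Bmx at 0.23, and neither was called. Of 8 Src-family genes Fyn rose, Src fell by 0.53 ± 0.18 (adjusted p = 0.0377) and 6 were not called, beside the same shares of all genes. The values of both families describe single genes. Src held its call in 5 of 15 alternative fits.

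Of 16 genes that restrain the signal 3 rose, 6 fell and 7 were not called, with a median of -0.14, beside the same 18.3% and 19.8% of all genes. The adaptor genes Lax1 and Dok2 rose by 0.67 ± 0.09 and 0.48 ± 0.08 (adjusted p = 0.000204 and 0.000609), and Dgkz, a kinase gene that removes diacylglycerol, rose by 0.32 ± 0.07 (adjusted p = 0.00245). Sla2 fell by 0.46 ± 0.07, Sit1 by 0.51 ± 0.10, Ubash3a by 0.40 ± 0.08, Pag1 by 0.59 ± 0.13 and Ubash3b by 0.28 ± 0.07 (adjusted p = 0.000429, 0.00238, 0.00299, 0.00825 and 0.00852). Relative to the CD3 genes Pag1, Ubash3a and Ubash3b were not called (-0.41, -0.22 and -0.11, adjusted p = 0.142, 0.0898 and 0.425). The list's sixth fallen gene, Dok1, held its call in 6 of 16 alternative fits. Csk, the kinase that inhibits Lck, and its opponent Ptprc (CD45), counted among the signalling genes, were at -0.07 ± 0.07 and 0.15 ± 0.09 and not called.

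Of 12 transcription factor genes of the T lineage 1 rose, 5 fell and 6 were not called, with a median of -0.17, beside the 18.3% of all genes that rose and the 19.8% that fell. Gata3 rose by 0.66 ± 0.08 (adjusted p = 5.10e-05). Zbtb7b, which encodes the CD4-lineage factor ThPOK, fell by 0.76 ± 0.08 and Lef1 by 0.57 ± 0.11 (adjusted p = 2.26e-05 and 0.00243). Ikzf1, Runx1 and Ets1 fell by 0.37 ± 0.07, 0.35 ± 0.08 and 0.28 ± 0.07 (adjusted p = 0.00213, 0.00491 and 0.0113), and relative to the CD3 genes they were at -0.19, -0.18 and -0.10 and not called (adjusted p = 0.216, 0.304 and 0.490). Tcf7 and Bcl11b, at -0.15 ± 0.08 and -0.04 ± 0.07, were not called. No gene of these lists was called between KO and WT in TFH or naive libraries.

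**Figure D5:**
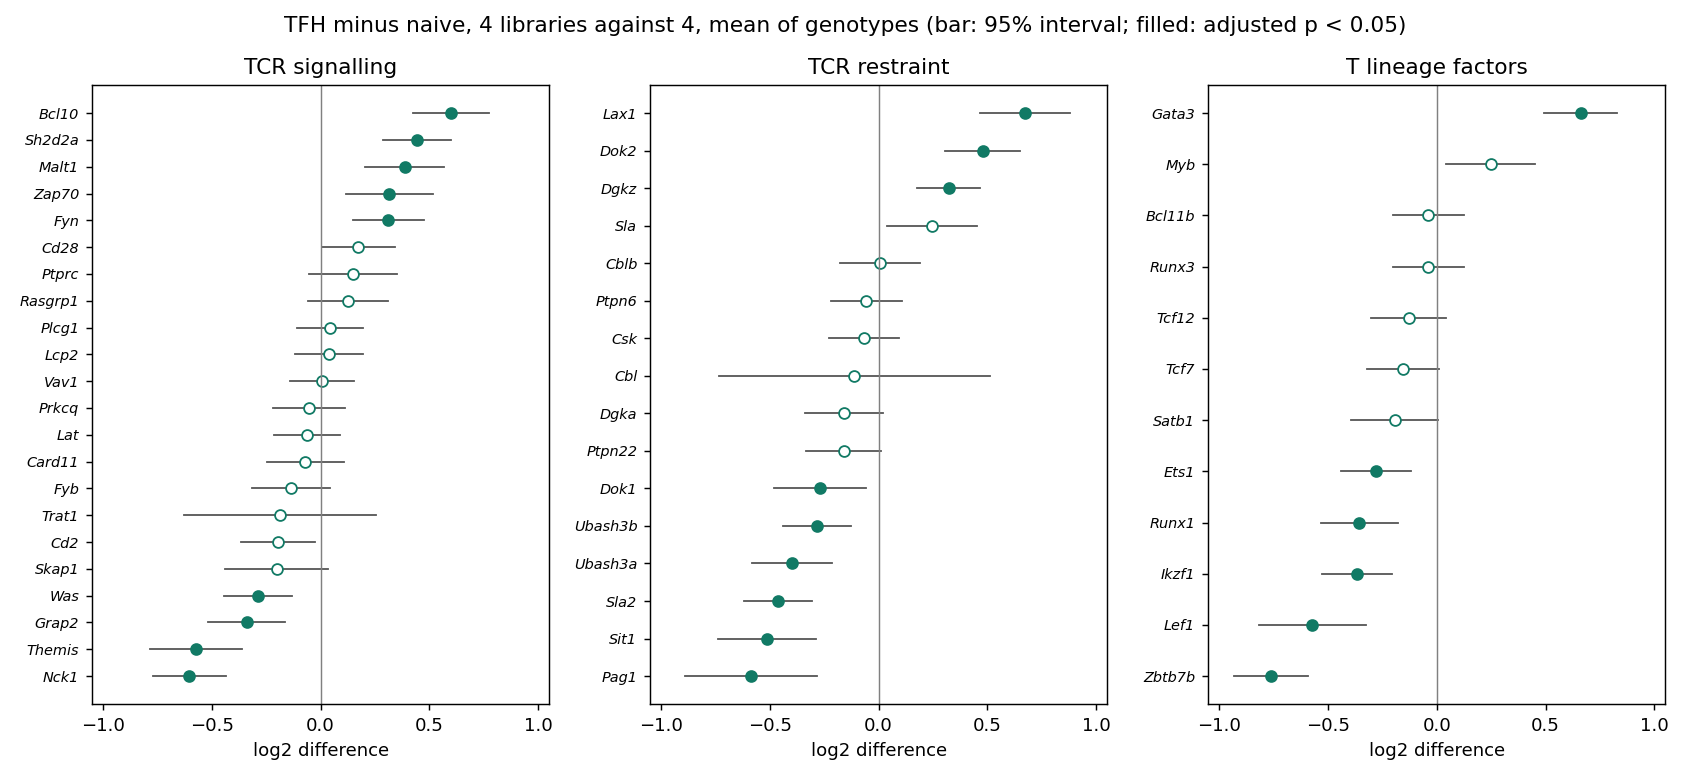
Log2 difference of TFH minus naive, averaged over genotypes (4 libraries against 4), for the genes of 3 pathway lists, with 95% intervals; filled points have an adjusted p below 0.05 by limma over all genes. Called genes lie on both sides of 0 in each list, with 5 higher and 4 lower among the signalling genes.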

How the data were processed

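Gene expression was measured by single-end RNA sequencing of 8 libraries. The submitters' processing notes name BWA and the mouse build mm10, and neither the counting tool nor the annotation or scaling step is stated in what was used here. The authors deposited log2 values for 14042 symbols per library. Sorted by size, the deposited log2 values of every library coincide to 0.03 beyond the lowest percentile, as quantile normalization leaves them, so read depth is unknown and no interval for counting error can be given.

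All genes and libraries entered 1 limma 3.58.1 model (R 4.3.3) with a mean per group, 4 residual degrees of freedom, trended variance and robust moderation, tested on simulated data. P-values were adjusted by Benjamini-Hochberg over all genes. With 2 libraries against 2, the smallest two-sided p of an exact permutation is 0.33. Members and lists were chosen with earlier results of these data known, and a few listed genes are not reported here. Named genes are all members, up to 5 called genes per direction and pathway list by p, defining markers, and the gene nearest each member's centred profile by Euclidean distance; genes named outside this rule were chosen after their values were seen. Alternatives changed the variance prior, samples fitted, low-value filter, pseudocount, scaling to the CD3 genes, library weights, a B cell covariate and the libraries left out.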

Additional observations from a re-analysis of the deposited data

How the results depend on the processing

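Of 1000 values of single members under alternative settings, 981 stayed on their side of the threshold, 15 lost a call and 4 gained one, and no called value changed sign. The count of 5 members called over both genotypes was 4 to 5 with a library left out, 4 with T cell scaling and 6 with the B cell covariate. In WT it was 4 of 10 with any library left out and 5 with that covariate. In KO the 4 members became 2 with T cell scaling, 2 without replicate 2 of both TFH groups and 2 to 5 with 1 library left out. Between KO and WT, and in the interaction, no member was called in any setting. These comparisons are among the 1000 values and had no call to lose. The 15 lost calls were 11 of Cd3d and 4 of Cd5.

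Over all genes, TFH against naive in WT called 3694 genes, 2435 with T cell scaling, 2104 without replicate 2 of both TFH groups and 1991 to 2501 with a library left out. In KO it called 2744, 1225 without those libraries and 1399 to 2219 with a library left out. KO against WT called 0 genes in TFH and 1 when only the compared groups were fitted, 10 in naive libraries and 7 to 17 with a library left out, and 8 in the average. That 8 was 4 without the variance trend, without the genes of lowest mean level, with T cell scaling and without both TFH replicate 2 libraries, and 4 to 11 with a library left out. The interaction called 2 genes, 0 without the trend or with T cell scaling, and 1 to 7 with a library left out.

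No paired analysis was possible because the labels pair no replicates across groups. The replicate numbers used here match no library of 1 group to a library of another. Leaving out a library leaves 1 in its group, assumed to vary like the others. Small differences in low genes cannot be judged with unknown depth and 2 libraries per group.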

Other observations

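Among 69 measured members and pathway genes, 4 had KO libraries wholly on opposite sides of WT in TFH and in naive libraries. None of the 4 is a member. Their share of the 69 is near the 5.96% of all genes placed that way, and the values below describe single genes. The log2 differences in TFH and naive libraries were 0.35 and -0.24 for Grap2, 0.30 and -0.17 for Bcl11b, 0.11 and -0.22 for Tcf7, and -0.20 and 0.09 for Ubash3a. The interaction was 0.59 ± 0.16, 0.48 ± 0.15, 0.33 ± 0.15 and -0.30 ± 0.17, with an adjusted p of 0.997 for each by limma. These genes were picked after their values were seen. Of 5 other measured genes within 100 kb of the CD3 cluster on chromosome 9, Atp5l and Ube4a were lower in TFH than in naive libraries over both genotypes, at -0.26 ± 0.09 and -0.27 ± 0.10 (adjusted p = 0.0451 and 0.0467, limma), and Kmt2a, Mpzl3 and Jaml were not called. In that comparison 19.8% of all genes were lower and 18.3% higher.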
